A study of Mus musculus with 11 samples.

Results

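A group of 9 genes of the osteoblast programme was followed in RNA-seq libraries of cultured mouse mesenchymal stem cells (MSCs), which are stromal cells of bone that can form osteoblasts. They comprised the regulators Runx2, Sp7, Dlx5 and Dlx3 and the matrix and mineralisation genes Alpl, Bglap, Ibsp, Spp1 and Phex. The genes were chosen by name, with earlier results of these data known. Of them, 9 of 9 were found among the 28222 genes of the count table and passed the filter on low counts. All libraries came from MSCs grown at 2% oxygen. Batch A held 4 libraries from young mice of 3 to 5 months. Batch B held 2 libraries from young mice and 2 from old mice of 18 to 22 months, and batch C held 3 libraries from old mice. Strain, sex and genotype were not given in the labels, no other treatment was named, and nothing in the labels said whether replicates came from separate animals. P-values therefore measure the spread between these libraries, which may be technical.

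Osteoblasts arise from MSCs when Runx2 and then Sp7 switch on the genes of the bone matrix, and the homeodomain proteins Dlx5 and Dlx3 act on the same genes. The matrix proteins bone sialoprotein (Ibsp), osteopontin (Spp1) and osteocalcin (Bglap) bind mineral. Mineral grows only once its inhibitor pyrophosphate is hydrolysed, which is the work of tissue-nonspecific alkaline phosphatase (Alpl). Phex, a membrane peptidase of osteoblasts and osteocytes, restrains proteins that block mineralisation and phosphate retention.

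The sequences upstream of the transcription start are shown for the genes in which the core of the RUNX binding motif was found, since Runx2 is itself one of the genes studied. RefSeq promoters (assembly GRCm38.p6) were available for 6 of the 9 genes, and the 250 bases before each start were searched on both strands for TGTGGT, whose other strand reads ACCACA. The core, in capitals below, lay at positions −80 to −75 of Runx2, −132 to −127 of Bglap and −128 to −123 of Spp1, counted back from the start at −1. It was present in 14.0% of all 32851 promoters of that length, so that a match is a description and does not by itself show binding. The windows are chr17:44814690-44814719 for a stretch of 30 bases of Runx2 (minus strand), chr3:88384467-88384716 for Bglap (minus strand) and chr5:104434861-104435110 for Spp1 (plus strand). The Runx2 stretch lies before the RefSeq start but inside the gene span given below.
Runx2: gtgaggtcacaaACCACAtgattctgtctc
Bglap: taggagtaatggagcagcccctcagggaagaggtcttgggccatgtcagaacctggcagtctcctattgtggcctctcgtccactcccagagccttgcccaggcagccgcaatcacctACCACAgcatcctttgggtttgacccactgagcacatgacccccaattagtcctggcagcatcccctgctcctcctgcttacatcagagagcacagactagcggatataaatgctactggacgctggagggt
Spp1: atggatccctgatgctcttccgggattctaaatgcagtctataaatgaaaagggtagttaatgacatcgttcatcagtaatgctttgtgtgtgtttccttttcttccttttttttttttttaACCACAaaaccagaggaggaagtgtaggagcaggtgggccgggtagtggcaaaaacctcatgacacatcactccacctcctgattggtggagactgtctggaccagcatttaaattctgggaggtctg
Other motifs in the same windows are likewise matches of letters only. The letters of the TATA box (TATAAA or TTTATA, 12.4% of all promoters) lay at −27 to −22 of Bglap and −28 to −23 of Ibsp. Further from the start, they lay at −192 to −187 of the first start of Alpl and −211 to −206 of the first start of Spp1. Starts are numbered by coordinate, so that the first start of Alpl, on the minus strand, is the downstream one. A pair of overlapping GC boxes (GGGCGG or CCGCCC, 32.7% of all promoters) lay at −15 to −10 and −10 to −5 of the second start of Alpl. The homeodomain core TAATTA, present in 4.84% of all promoters, was found at −122 to −117 of the second start of Spp1. The motifs of Ibsp, of the first start of Alpl and of the second start of Spp1 also lie inside the gene spans given below.

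The libraries held between 11969336 and 20315934 counts. Levels are given as CPM, counts divided by the TMM-scaled total of the library in units of 1000000, and a floor of 3 counts lay at 0.156 to 0.253 CPM. The sort described in the methods kept bone cells that lacked CD45 and carried Sca-1 and CD140a. The sort marker Ly6a (Sca-1) was at 270.1 to 778 CPM and Pdgfra (CD140a) at 109 to 289 CPM. Ptprc, which encodes the blood cell marker CD45, was present at 3.47 to 22.2 CPM. The summed level of 12 macrophage and leukocyte markers was 631 to 1369 CPM in A young, 358 to 725 CPM in B young, 724 to 1045 CPM in B old and 127 to 147 CPM in C old, and 0 of the 12 were at 0 in any library. The 8 adipocyte markers summed to 92.5 to 160 CPM in batches A and B and to 292 to 313 CPM in C old. In bulk RNA, more cells of a type and more RNA per cell cannot be told apart.

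Per kilobase of the longest annotated transcript (RPKM), the order of the mean levels over the 11 libraries ran from Spp1 (322 ± 83.5 RPKM, SD, n = 11) through Alpl (79.6 ± 26.5), Ibsp (24.6 ± 19.9), Sp7 (14.9 ± 7.44), Runx2 (9.07 ± 2.72), Dlx5 (8.86 ± 0.914), Bglap (4.66 ± 4.50) and Dlx3 (0.615 ± 0.270) to Phex (0.151 ± 0.122). Spp1 stood at percentile 98.9 and Phex at percentile 7.56 among 16114 tested genes with a length. Some neighbours in this order did not differ beyond their spread: Ibsp was above Sp7 in 7 of 11 libraries, and Runx2 was above Dlx5 in 5 of 11. Bglap was below Dlx5 in 10 of 11 libraries, and each of the other neighbouring pairs kept its order in 11 of 11. With the median instead of the longest transcript length, Runx2 rose to 36.5 RPKM and Alpl to 332 RPKM, and Spp1 was then above Alpl in 6 of 11 libraries and Sp7 above Runx2 in 0 of 11. The genes differed in how much they varied. Dlx5 was nearly flat, with 1.33-fold between its lowest and highest library in CPM, whereas Bglap varied 20.5-fold and Ibsp 11-fold. Phex was below the floor of 3 counts in its lowest library, so no such ratio is given for it.

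**Figure D1:**
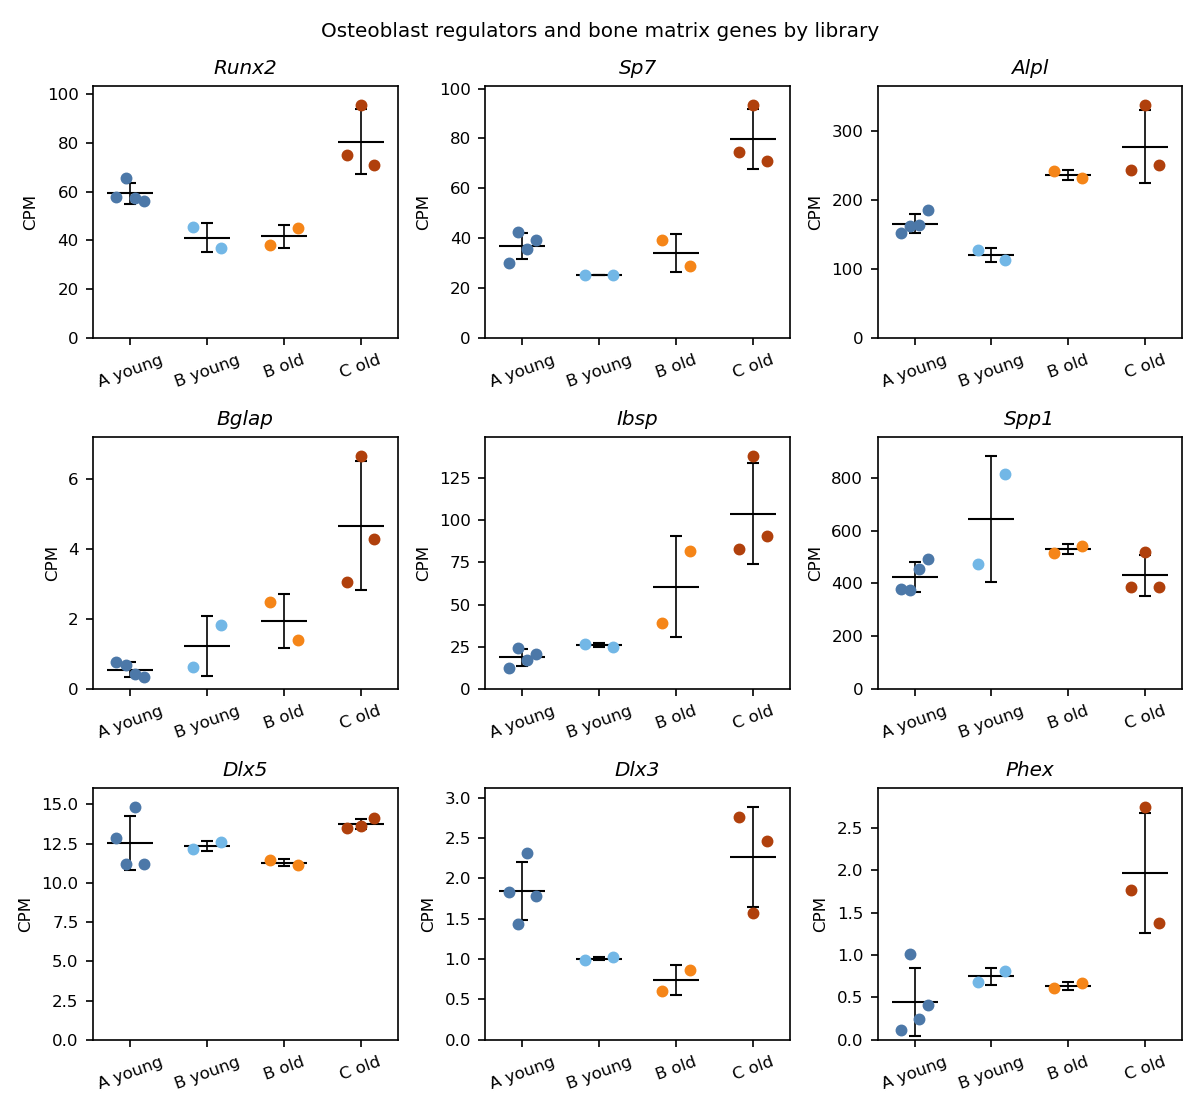
CPM (y axis, linear from 0) of each of the 9 genes in each library, with 1 point per library, grouped by batch and age (A young n = 4, B young n = 2, B old n = 2, C old n = 3); horizontal lines are group means and bars are SD. The C old libraries lie above all others for Runx2, Sp7, Alpl, Bglap, Ibsp and Phex, and B old lies above B young for Sp7, Alpl and Ibsp.

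Only batch B held both ages, so the effect of age was tested there, in a fit across all 11 libraries with batch and age as groups. Of the 9 genes, 1 was called at an edgeR adjusted p below 0.05, against 2.23% of all 16132 genes tested (0.694% higher and 1.54% lower in old MSCs). That gene was Alpl, which was higher in old MSCs. The median log2 fold change of the 9 genes was 0.02, and that of all genes 0.00. The groups did not overlap for 6 of the 9 genes, 3 higher and 3 lower, which with 2 libraries against 2 was the case for 39.7% of all genes.

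Alpl (ENSMUSG00000028766, GRCm38 chromosome 4, 137741733 to 137796384, minus strand) was at 127 and 112 CPM in B young and at 242 and 232 CPM in B old. Both old libraries were thus well above both young ones. This 1.98-fold difference (log2 fold change 0.98, SE 0.15) passed with an edgeR adjusted p of 0.00287. It ranked 40 by p-value among all genes tested. Batch A young libraries lay in between, at 151, 162, 164 and 185 CPM, and C old libraries were at 244, 338 and 250.4 CPM, so that 5 of 5 old libraries exceeded 6 of 6 young ones. With the batches compared at one age, Alpl was 0.47 lower on the log2 scale in B young than in A young (log2 fold change −0.47, SE 0.13, edgeR adjusted p = 0.0167), which became −0.38 with an adjusted p of 0.152 without B young replicate 2. C old and B old differed by 0.23 (SE 0.14, adjusted p = 0.163).

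Enpp1 and Ank were among the 3 genes called within batch B from a list of further matrix and mineralisation genes, given below, and they are set beside Alpl because both act on pyrophosphate, a grouping made after their values were seen. Enpp1, which makes pyrophosphate from nucleotides, was at 52.4 and 46.4 CPM in B young and at 24.6 and 26.0 CPM in B old (log2 fold change −0.97, SE 0.16, edgeR adjusted p = 0.00467). Ank, which is needed for its release from cells, was at 143 and 164 CPM in B young and at 96.5 and 80.3 CPM in B old (−0.79, SE 0.12, adjusted p = 0.00249). For both genes young and old did not overlap in batch B. A young libraries were at 35.2, 24.4, 28.2 and 25.3 CPM for Enpp1 and at 109, 100.3, 94.5 and 94.9 CPM for Ank. These A young values overlapped those of B old for both genes. C old libraries were lower, at 17.0 to 19.6 CPM for Enpp1 and 63.0 to 66.8 CPM for Ank. Without B old replicate 1 the call of Enpp1 was lost (−0.91, adjusted p = 0.0613), and with batch B fitted alone that of Ank (adjusted p = 0.0579). The B young libraries also stood apart from A young in all 3 genes: Enpp1 was 0.80 (adjusted p = 0.000711) and Ank 0.62 (adjusted p = 0.00064) higher in B young on the log2 scale, and Alpl was lower. These comparisons share the B young libraries with the age comparison, so that a level particular to those 2 libraries enters both. In C old against A young, which share no library with batch B, the log2 fold changes were 0.75 for Alpl, −0.60 for Enpp1 and −0.63 for Ank, although there age and batch cannot be told apart.

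**Figure D2:**
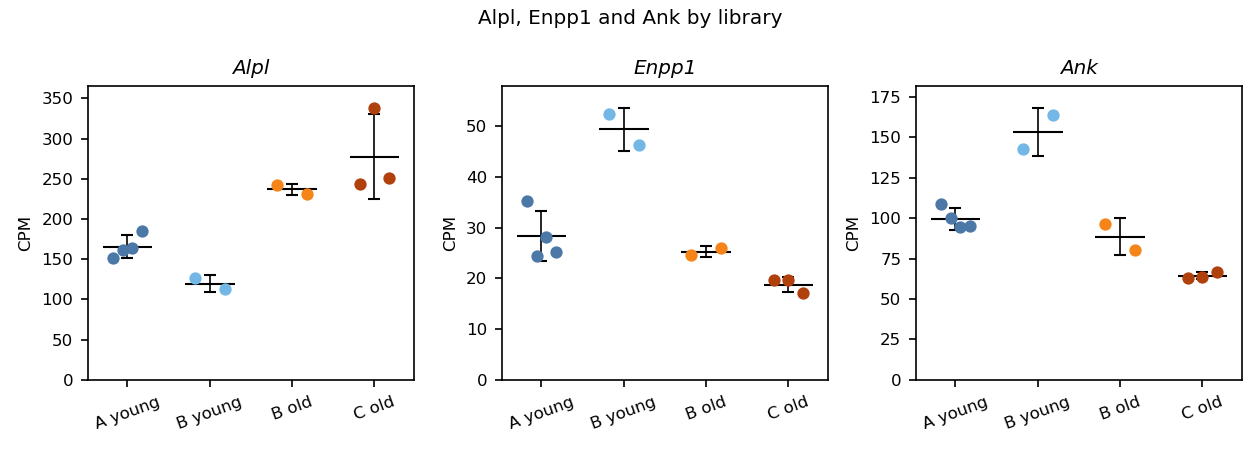
CPM (y axis, linear from 0) of Alpl, Enpp1 and Ank in each library by batch and age, with 1 point per library, group means as lines and SD as bars. B old lies above B young for Alpl and below it for Enpp1 and Ank, and the A young libraries lie between B young and B old for Alpl. For Enpp1 and Ank the A young libraries overlap those of B old.

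Ibsp (ENSMUSG00000029306, chromosome 5, 104299171 to 104311469, plus strand), a matrix protein on which mineral crystals form, was at 26.7 and 25.0 CPM in B young and at 39.3 and 82.0 CPM in B old. Its groups did not overlap, but the old libraries differed from each other by more than 2-fold. The log2 fold change of 1.23 (SE 0.31) missed the threshold with an edgeR adjusted p of 0.0522, and it passed in 7 alternative fits. It was 0.60 (adjusted p = 0.421) without B old replicate 2 and 1.67 (adjusted p = 0.0135) without B old replicate 1. A young libraries were at 12.6, 24.2, 17.0 and 20.8 CPM and C old libraries at 82.9, 138 and 90.9 CPM. Old libraries as a whole were therefore above young ones, 5 of 5 against 6 of 6. Only Ibsp and Alpl of the 9 genes showed this separation of all old from all young libraries, which 7.32% of the 14689 genes tested with age alone showed.

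Sp7 (ENSMUSG00000060284, chromosome 15, 102356606 to 102367182, minus strand), the zinc finger factor osterix, was at 25.2 and 25.4 CPM in B young and at 39.5 and 28.8 CPM in B old (log2 fold change 0.43, SE 0.18, adjusted p = 0.242). The difference between the old libraries was larger than that of the nearest libraries of the 2 ages. A young libraries were at 30.2, 42.5, 35.8 and 39.4 CPM, a range that held 1 of the B old values, and C old libraries were at 74.7, 93.6 and 70.9 CPM. Runx2 (ENSMUSG00000039153, chromosome 17, 44495987 to 44814797, minus strand), the runt factor that starts osteoblast differentiation, was at 45.4 and 36.9 CPM in B young and at 38.3 and 45.1 CPM in B old. These values overlapped, with a log2 fold change of 0.02 (SE 0.15, adjusted p = 0.972). Its A young libraries were at 58.1, 65.8, 57.6 and 56.2 CPM and its C old libraries at 75.0, 95.8 and 70.9 CPM, so that batch B was lowest at both ages. Runx2 shares 519 exon bases with the antisense gene Runx2os1, and whether reads were assigned by strand was not given in the sources used here.

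Dlx5 (ENSMUSG00000029755, chromosome 6, 6877805 to 6882085, minus strand) was at 12.1 and 12.6 CPM in B young, 11.4 and 11.2 CPM in B old, 12.9, 11.2, 14.9 and 11.2 CPM in A young and 13.5, 13.6 and 14.1 CPM in C old. It passed the threshold in 0 of the 4 group comparisons, with log2 fold changes from −0.13 (SE 0.16, within batch B) to 0.28 (SE 0.15, C old against B old). Dlx3 (ENSMUSG00000001510, chromosome 11, 95120119 to 95125296, plus strand) was low, at 9 to 47 counts. It was at 0.990 and 1.02 CPM in B young and 0.606 and 0.868 CPM in B old, against 1.83, 1.44, 2.31 and 1.79 CPM in A young and 2.77, 1.57 and 2.47 CPM in C old. Batch B was thus lower than the other batches at both ages, and the age difference within it was −0.44 (SE 0.43, adjusted p = 0.653). Phex (ENSMUSG00000057457, chromosome X, 157162075 to 157415312, minus strand) had 2 to 42 counts. Its levels were 0.111, 1.01, 0.248 and 0.406 CPM in A young, of which the first is below the floor of 3 counts, then 0.677 and 0.817 CPM in B young, 0.606 and 0.668 CPM in B old and 1.77, 2.75 and 1.38 CPM in C old. The C old libraries were above all others, and within batch B the log2 fold change was −0.22 (SE 0.65, adjusted p = 0.901).

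Bglap (ENSMUSG00000074483, chromosome 3, 88383501 to 88384464, minus strand), or osteocalcin, is a late marker of osteoblasts and had 4 to 102 counts. It was at 0.776, 0.675, 0.413 and 0.325 CPM in A young, 0.625 and 1.84 CPM in B young, 2.49 and 1.40 CPM in B old and 3.06, 6.67 and 4.28 CPM in C old. Young and old overlapped in batch B, where the log2 fold change was 0.71 (SE 0.51, adjusted p = 0.525). It was 0.08 without B young replicate 1 and 1.62 without B young replicate 2. Its neighbouring copy Bglap2 has a coding sequence with 284 of 288 bases identical, and 92 of the 291 stretches of 150 bases in the Bglap transcript (31.6%) also occur in Bglap2, so the division of reads between them is uncertain. Bglap2 was at 0.886 to 10.01 CPM with a difference of 0.24 (SE 0.34, adjusted p = 0.775) within batch B, and Bglap3 had 1 count in all libraries together. Summed over the 3 copies, levels were 1.60 to 2.23 CPM in A young and 3.91 and 6.06 CPM in B young. In B old they were 7.61 and 5.14 CPM, and in C old 9.06, 16.7 and 9.93 CPM. This sum does not depend on how counted reads were divided among the copies, but any shared reads left uncounted would be missing from it. The sum overlapped between the ages in batch B, as Bglap alone did.

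Spp1 (ENSMUSG00000029304, chromosome 5, 104435118 to 104441050, plus strand), the most abundant of the 9 genes per length, showed no separation of young and old. It was at 474 and 813 CPM in B young and at 515 and 542 CPM in B old (log2 fold change −0.28, SE 0.21, adjusted p = 0.543), a difference that turned to 0.15 without B young replicate 2. A young libraries were at 378, 374, 454 and 492 CPM and C old libraries at 385, 520.2 and 384 CPM. In the 4 group comparisons Spp1 passed in B young against A young (0.60, SE 0.18, adjusted p = 0.0229), and this rested on B young replicate 2, without which it was 0.16 (adjusted p = 0.601). In C old against B old it was −0.30 (SE 0.19, adjusted p = 0.202), and the same difference passed with old libraries fitted alone (adjusted p = 0.0359) or without a filter (adjusted p = 0.042). Spp1 is also made by macrophages, and the part of such cells in its level was not tested. Ptprc, Cd68 and Tyrobp, which mark such cells, were lower in C old than in A young by log2 fold changes of −1.77, −2.73 and −4.29. Of the list, 12 of 12 markers were called lower, against 31.4% of all genes, and Spp1 differed by 0.02 (SE 0.16, adjusted p = 0.925). B young replicate 2, the library highest in Spp1, had the lowest summed marker level of batch B at 358 CPM. The same library had the highest summed level of 7 osteoclast markers in batch B, at 173 CPM. However, 4 of the 7 markers were at 0 in this library. The osteoclast marker Acp5 was at 0.781 and 1.70 CPM in B young, the second being this library, and at 6.13 and 3.07 CPM in B old. The part of either cell type in the Spp1 level of B young replicate 2 was not tested. Within batch B, 12 of 12 macrophage and leukocyte markers had a positive age difference with a median of 0.64. The threshold in edgeR was passed by 0 of 12 (5 at an unadjusted p below 0.05, 0 in limma and 1 in DESeq2), against 2.23% of all genes. In C old against B old 12 of 12 passed, against 55.2% of all genes.

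**Figure D3:**
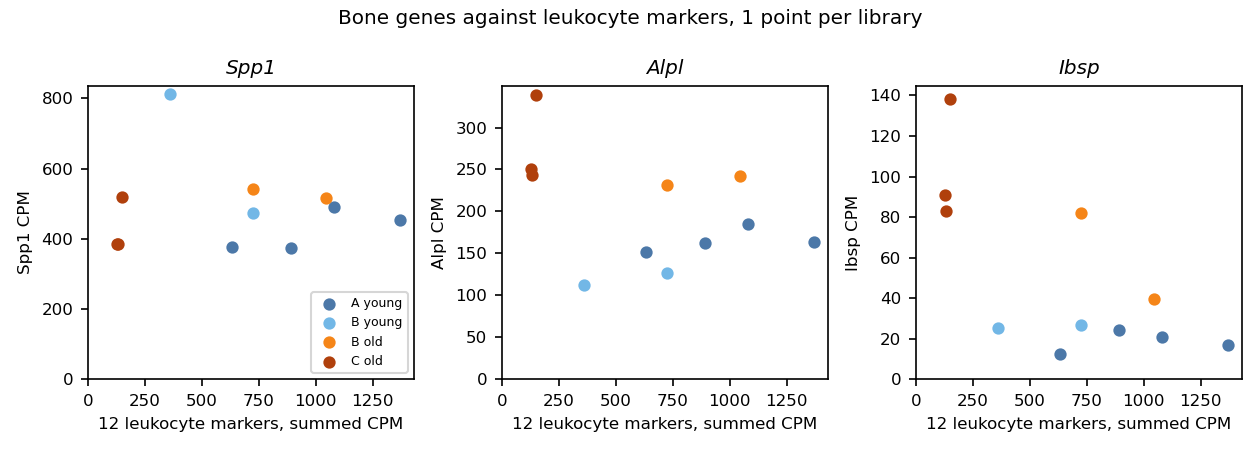
CPM of Spp1, Alpl and Ibsp (y axes) against the summed CPM of 12 macrophage and leukocyte markers (x axis), both linear from 0, with 1 point per library coloured by group. C old libraries lie at 127 to 147 CPM of the markers with Spp1 levels that overlap those of A young at 631 to 1369 CPM.

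Differences between batches at the same age were then used as a measure of how far the genes moved without a change of age. Between B young and A young, 4 of the 9 genes were called, 1 higher and 3 lower in B young, against 25.9% of all genes (12.8% higher, 13.1% lower). Runx2 was lower by a log2 fold change of −0.53 (SE 0.13, adjusted p = 0.00917) and Sp7 by −0.54 (SE 0.16, adjusted p = 0.0191), beside Alpl, and Spp1 was higher. The median log2 fold change of the 9 genes was −0.02, against −0.01 for all genes. Groups did not overlap for 5 of the 9 genes, against 39% of all genes: Ibsp was higher, and Runx2, Sp7, Alpl and Dlx3 were lower in both B young libraries, Ibsp (0.49, SE 0.28, adjusted p = 0.217) and Dlx3 without passing the threshold (−0.87, SE 0.33, adjusted p = 0.0676). Without B young replicate 2, 0 of 9 were called in this comparison, with Runx2 at −0.38 (adjusted p = 0.13) and Sp7 at −0.54 (adjusted p = 0.106). Without B young replicate 1, Sp7 missed the threshold with an adjusted p of 0.0628.

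Between C old and B old, 6 of the 9 genes were called, all of them higher in C old, against 55.2% of all genes tested with 26.9% called higher and 28.3% lower. The regulators Runx2 (log2 fold change 0.95, SE 0.14, adjusted p = 3.91e-05), Sp7 (1.23, SE 0.16, adjusted p = 1.44e-05) and Dlx3 (1.61, SE 0.37, adjusted p = 0.00162) were higher. So were Bglap (1.26, SE 0.42, adjusted p = 0.0191), Ibsp (0.78, SE 0.28, adjusted p = 0.0262) and Phex (1.62, SE 0.54, adjusted p = 0.0197). C old libraries exceeded both B old libraries for 8 of the 9 genes, Spp1 being the exception, and groups did not overlap for 75.4% of all genes. The median log2 fold change of the 9 genes was 0.95 against 0.02 for all genes. C old replicate 2 was the highest of the 3 C old libraries for 7 of the 9 genes, and without it 3 of 9 genes were called: Bglap (0.91, adjusted p = 0.103), Ibsp (0.52, adjusted p = 0.129) and Phex (1.30, adjusted p = 0.0846) were lost. DESeq2 called 5, without Ibsp (adjusted p = 0.0703), and scaling by total counts called 8, with Alpl (0.42, adjusted p = 0.0167) and Dlx5 (0.47, adjusted p = 0.0119) added. Without B old replicate 1, Ibsp (0.34, adjusted p = 0.346) and Phex (adjusted p = 0.0988) missed the threshold, and without B old replicate 2, Ibsp was 1.40 and the threshold was missed by Bglap (0.90, adjusted p = 0.168) and Phex (adjusted p = 0.0762). The leukocyte markers fell and adipocyte markers rose between the same libraries (12 of 12 called lower and 5 of 6 tested called higher), and their part in these differences was not tested.

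C old and A young differed in both age and batch. Here 6 of the 9 genes were called, all higher in C old, against 58.5% of all genes tested with 27.1% called higher and 31.4% lower. Bglap was 8.15-fold higher (log2 fold change 3.03, SE 0.41, adjusted p = 1.24e-05), Ibsp 5.63-fold (2.49, SE 0.24, adjusted p = 4.86e-07) and Phex 4.67-fold (2.22, SE 0.48, adjusted p = 0.000877). In A young, Bglap had 4 to 14 counts and Phex 2 to 12 counts, so that their ratios rest on low counts. Sp7 was 2.16-fold (1.11, SE 0.13, adjusted p = 3.24e-06) and Runx2 1.36-fold higher (0.44, SE 0.11, adjusted p = 0.00337). Alpl was 1.68-fold higher (0.75, SE 0.11, adjusted p = 3.85e-05), while Dlx5 (0.13, SE 0.12) and Dlx3 (0.30, SE 0.27) did not pass. The median of the 9 genes was 0.75 on the log2 scale, against −0.03 for all genes. For the 6 called genes each C old library was above each A young library, and groups did not overlap for 62% of all genes. When each library was left out in turn, 6 genes were still called each time, and Phex moved to 3.00 without A young replicate 2. Between the same libraries 12 of 12 leukocyte markers were called lower (median −3.13) and 6 of 6 tested adipocyte markers higher (median 1.21), and their part in these differences was not tested.

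**Figure D4:**
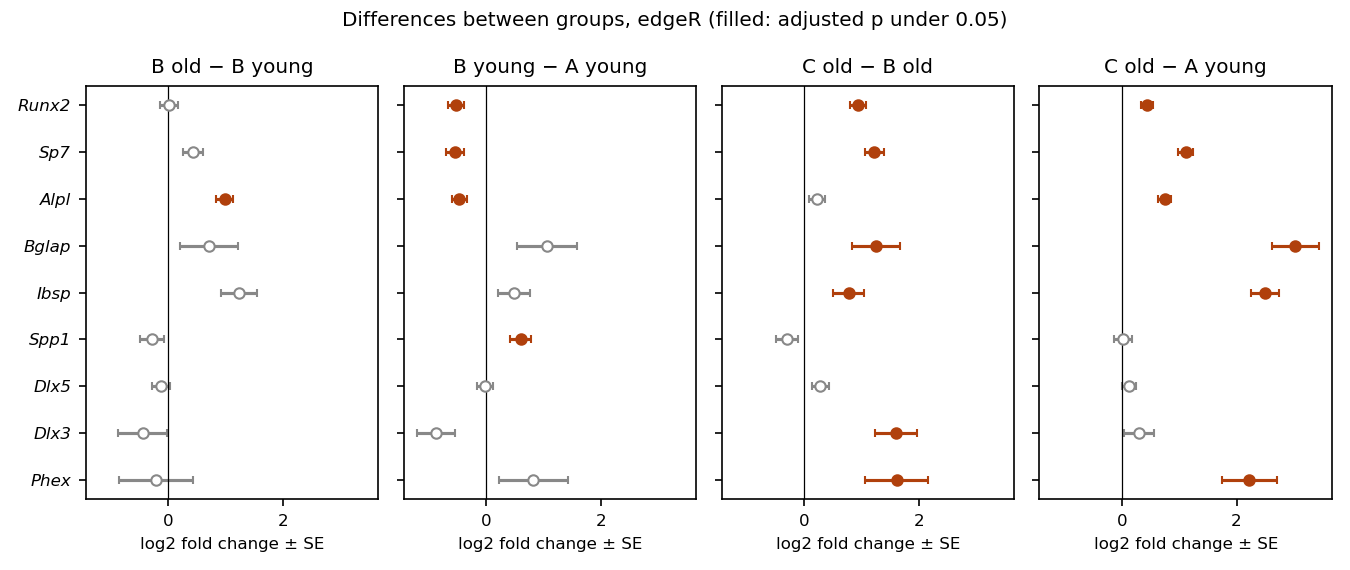
Log2 fold change of the 9 genes (x axis, bars are SE) in the comparison of age within batch B and in 3 comparisons that involve batch, with filled points where the edgeR adjusted p was below 0.05. Alpl is filled within batch B, and 6 genes are filled and to the right of 0 in both comparisons with C old.

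If batch was left out and 6 young libraries were compared with 5 old ones, 4 of the 9 genes were called, all higher in old MSCs, against 18% of 14689 genes tested (9.33% higher, 8.65% lower). These were Ibsp (log2 fold change 2.06, SE 0.28, adjusted p = 0.00589, rank 14 by p-value), Bglap (2.2, SE 0.47, adjusted p = 0.0129), Alpl (0.82, SE 0.15, adjusted p = 0.0101) and Sp7 (0.92, SE 0.28, adjusted p = 0.0386). Within batch B the same 4 genes had log2 fold changes of 1.23, 0.71, 0.98 and 0.43, and of these Alpl passed. Sp7 lost its call in 11 alternative fits, among them 9 of the fits that left out 1 library, in which its adjusted p was at most 0.103. Runx2 (0.31, SE 0.23, adjusted p = 0.361) and Phex (1.42, SE 0.53, adjusted p = 0.0778) did not pass.

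**Figure D5:**
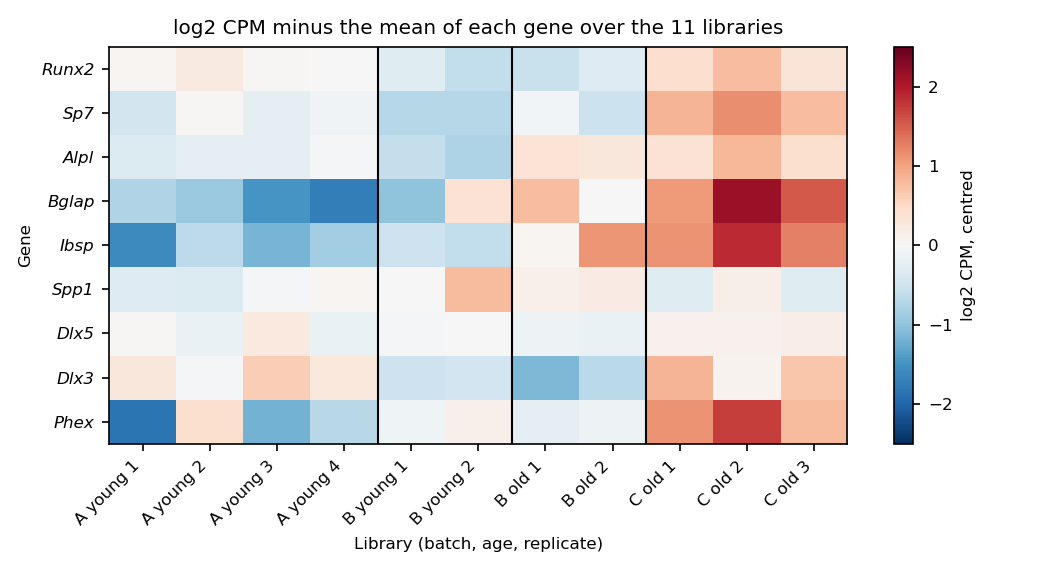
Log2 CPM of each gene (rows) in each of the 11 libraries (columns, ordered by batch and age), shown as the difference from the mean of the gene over all libraries, with vertical lines between groups. The 3 C old libraries are above the mean for 8 of the 9 genes, Spp1 being mixed, and Dlx5 stays close to its mean throughout.

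Further genes of the pathway were examined in lists, which were drawn up with earlier results of these data known. The shares called in each list are therefore a description and not a test of the list. Of 19 tested transcription factors and cofactors, 2 were called within batch B (10.5%, against 2.23% of all genes). Runx3, a relative of Runx2, was higher in old MSCs (7.81 and 5.72 CPM in B young, 13.0 and 10.5 CPM in B old, log2 fold change 0.79, SE 0.19, adjusted p = 0.0407). Maf, which supports osteoblast over adipocyte formation, was lower (195 and 155 against 111 and 109 CPM, −0.68, SE 0.16, adjusted p = 0.0322). The groups did not overlap for either gene, but the calls were lost in 10 and 9 alternative fits, and leaving out B old replicate 1 gave adjusted p-values of 0.329 and 0.211. The list had a median log2 fold change of 0.05 in this comparison. It had 3 of 19 genes called in B young against A young (2 higher), 11 in C old against B old (7 higher) and 12 in C old against A young (6 higher), beside 25.9%, 55.2% and 58.5% of all genes. In the last comparison Dlx1 had the smallest p-value (2.66, SE 0.23, adjusted p = 1.55e-07).

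Among 19 tested repressors of the programme, 2 were called within batch B (10.5%, against 2.23% of all genes), both lower in old MSCs. Grem1, a secreted antagonist of bone morphogenetic proteins (BMPs), was at 118 and 114 CPM in B young and at 56.4 and 48.5 CPM in B old (log2 fold change −1.15, SE 0.15, adjusted p = 0.00102). Smad6, an inhibitor inside the cell of the same signal, was at 74.6 and 68.0 against 57.6 and 41.1 CPM (−0.53, SE 0.13, adjusted p = 0.0466), and its call was lost in 11 alternative fits. Grem1 was at 19.7 to 30.6 CPM in A young, below both groups of batch B, and in C old (53.8 to 63.2 CPM) it was higher than in A young (1.16, SE 0.12, adjusted p = 9.12e-07). The difference between A young and C old was thus of the opposite sign to that of batch B. The median of the list was −0.22 within batch B, and 12 genes were called in B young against A young (5 higher), 12 in C old against B old (10 higher) and 7 in C old against A young (5 higher), or 63.2%, 63.2% and 36.8% of the list against 25.9%, 55.2% and 58.5% of all genes.

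Receptors and ligands upstream of the programme showed 0 of 18 genes called within batch B by edgeR (against 2.23% of all genes), with a median of −0.08. At an unadjusted p below 0.05 there were 6, and limma called 1 and DESeq2 4. The smallest p-value was that of Pth1r, the receptor for parathyroid hormone (log2 fold change 0.59, SE 0.15, adjusted p = 0.0508). In B young against A young 8 were called (1 higher), or 44.4% against 25.9% of all genes, led by Notch2 (−0.88, SE 0.13, adjusted p = 0.000427). There were 14 called in C old against B old (9 higher) and 9 in C old against A young (2 higher), against 55.2% and 58.5% of all genes. In the latter, Smo had the smallest p-value (−0.55, SE 0.08, adjusted p = 2.14e-05).

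Bone matrix and mineralisation genes outside the 9 had 3 of 20 tested genes called within batch B (15%, against 2.23% of all genes), all lower. These were Enpp1 and Ank, described above, and Col11a2, a fibrillar collagen chain. Col11a2 was at 26.2 and 5.31 CPM in B young and at 2.49 and 3.61 CPM in B old (log2 fold change −2.38, SE 0.48, adjusted p = 0.0164). It rested on B young replicate 1, without which the log2 fold change was −0.80 (adjusted p = 0.205). Leaving out B old replicate 1 or 2 also lost the call, with adjusted p-values of 0.195 and 0.059. The median of the list was −0.22 within batch B, and 10 genes were called in B young against A young (5 higher), 9 in C old against B old (5 higher) and 12 in C old against A young (3 higher), or 50%, 45% and 60% of the list against 25.9%, 55.2% and 58.5% of all genes. In the last comparison Col1a1, a chain of type I collagen, was lower by −1.56 (SE 0.16, adjusted p = 1.12e-06) and Sparc, a collagen-binding matrix protein, by −1.12 (SE 0.10, adjusted p = 1.94e-07). Omd, a small proteoglycan of bone, was higher by 2.45 (SE 0.19, adjusted p = 6.92e-08), as were Bglap and Ibsp. Matrix genes thus did not move one way between these groups.

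Genes of osteocytes, the cells that osteoblasts become inside bone, were near the limit of detection in part. Dmp1 was at no more than 0.798 CPM in any library, and Mepe had counts in 1 library. Of 5 tested osteocyte genes, 0 were called within batch B by edgeR, limma or DESeq2, against 2.23% of all genes by edgeR. An unadjusted p below 0.05 was found for 0 of them, the smallest p-value being that of Pdpn (log2 fold change 0.31, SE 0.20, adjusted p = 0.469). There were 2 called in B young against A young (both higher), 3 in C old against B old (all lower) and 2 in C old against A young (1 higher), against 25.9%, 55.2% and 58.5% of all genes.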

How the data were processed

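Polyadenylated RNA of 11 cultured MSC libraries was sequenced. The methods of the study describe an oxygen comparison, with cells sorted from hind limb bones and reads processed with zUMIs, STAR and featureCounts, and it was assumed that they apply here. The authors deposited raw counts per Ensembl gene (mm10, per the labels), without normalisation. Whether strand or molecular identifiers were used was not given in the sources used here. Of 28222 genes, 28179 were matched to GENCODE M21 (GRCm38).

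Tests used the quasi-likelihood method of edgeR 4.0.16 (R 4.3.3) on 4 groups of age and batch in all 11 libraries, with filterByExpr (minimum count 5), TMM factors and Benjamini-Hochberg adjustment over all genes tested (threshold 0.05, two-sided). Standard errors were derived by dividing each log2 fold change by the root of its F. Log2 CPM used a prior count of 2. Named genes were the 9 genes, every list gene called within batch B or else the one with the smallest p-value, at most 4 per list in batch comparisons, the nearest tested gene on each side, and 2 genes of most similar profile, of which 1 is not reported here. The genes and lists were chosen with earlier results of these data known. The other cell markers were lists of osteoclast, chondrocyte, tendon, endothelial and erythroid genes. Alternatives were limma 3.58.1, DESeq2 1.42.0, RLE factors, scaling to total counts, no filter or a minimum count of 10, subsets of libraries, the replicate number as a block, and leaving out each library. On counts simulated for the age comparison in batch B (16063 genes tested), 55% of 2-fold and 84% of 4-fold changes were recovered, and 4.14% of calls were false. The simulation gave every gene the same dispersion, so these rates need not hold for the real libraries. No library was left out.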

Additional observations from a re-analysis of the deposited data

How the results depend on the processing

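Within batch B, the 9 genes had 1 call, and 2 with total counts, without a filter or with a replicate block (1 to 2 when a library was left out). Genes of the other lists had 7 calls, 13 with DESeq2, 20 without a filter, 4 with the replicate block, 2 with batch B alone, and 3 to 22 without 1 library. All genes had 360 calls, 643 with DESeq2, 1094 without a filter, 123 with batch B alone, and from 84 without B old replicate 1 to 2007 without B young replicate 2. Between B young and A young, the 9 genes had 4 calls, 2 with the replicate block, and 0 to 4 without 1 library; the other lists had 35 (18 to 39); all genes had 4171, 2591 with the block, 2686 with young libraries alone, and 1701 to 5348 without 1 library. Between C old and B old, the 9 genes had 6 (5 with DESeq2, 8 with total counts or old libraries alone, 7 without a filter, 3 to 6 without 1 library). Without batch, the 9 genes had 4 calls, the lists 17 and all genes 2641, each 0 with the replicate block, and 3 to 5, 7 to 22 and 761 to 3989 without 1 library. Replicate numbers were not shown to pair libraries: deviations of libraries with the same number correlated at −0.11 to 0.04, and in batch B at 0.04. With the median transcript length the mean level was 332 RPKM for Alpl and 36.5 RPKM for Runx2.

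Signs reversed only for differences that missed the threshold. Without batch, the log2 fold change of Dlx3 was −0.039 with limma-trend and −0.14 to 0.34 without 1 library, and that of Spp1 0.14 with total counts and −0.13 to 0.14 without 1 library. In B young against A young, Dlx5 was at 0.079 with total counts, 0.0012 with young libraries alone and −0.066 to 0.075 without 1 library. Without 1 library, Spp1 in C old against A young was at −0.12 to 0.11, and within batch B Bglap2 was at −0.013 to 0.45, Runx2 at −0.13 to 0.17 and Spp1 at −0.62 to 0.15. The cause was not tested. Of the alternatives for single genes, 892 kept direction and call, 66 lost a call, 21 gained one and 19 reversed. Alpl within batch B kept its call in all of its alternatives. Scaling by total counts moved the median of all genes by 0.06 within batch B, 0.19 between C old and B old, 0.35 between C old and A young and 0.23 without batch, and Dlx3 (0.66, adjusted p = 0.0448) and Dlx5 (0.49, adjusted p = 0.00256) then passed in C old against A young. Batch B held 2 libraries per age, and counts reached at most 47 for Dlx3 and 42 for Phex.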

Other observations

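Some other cell markers were called within batch B, where 2.23% of all genes passed. They were 1 of 4 tested osteoclast, 2 of 7 chondrocyte, 1 of 5 tendon and 2 of 7 sort and stromal markers. Of the adipocyte markers 0 of 6 passed, of the endothelial ones 0 of 2 and of the erythroid ones 0 of 3. Acp5, an acid phosphatase of osteoclasts and macrophages, was higher in old MSCs (log2 fold change 1.92, SE 0.40, edgeR adjusted p = 0.0194). Comp, a cartilage and tendon matrix protein, was lower (−1.30, SE 0.20, adjusted p = 0.00287). The stromal markers Pdgfra (−0.86, SE 0.15, adjusted p = 0.0059) and Nt5e (−1.34, SE 0.25, adjusted p = 0.00932) were lower too. In C old against B old, Pdgfra was higher by 1.23 and Nt5e by 0.79. The summed tendon markers were 9706 to 12671 CPM in A young and 3874 to 8184 CPM in the other groups, and the chondrocyte markers 2302 to 7001 CPM over all libraries. Endothelial markers summed to at most 9.89 CPM, erythroid markers to at most 2.76 CPM, and osteoclast markers to 113 to 173 CPM.

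The nearest tested genes on each side of the 9 genes were mostly not called with age in batch B: 1 of 18 passed, namely Itga3 beside Dlx3 (−0.84, SE 0.18, adjusted p = 0.0197), against 2.23% of all genes, and 11 of 18 passed in C old against A young, against 58.5% of all genes. Ibsp and Spp1 are themselves neighbours on chromosome 5, 123648 bases apart, with log2 fold changes of 2.49 and 0.02 in C old against A young. Dlx4, beside Dlx3, was higher there by 2.17 (SE 0.45, adjusted p = 0.000749). It was low, with 2, 6, 4 and 3 counts in A young and 26, 22 and 12 counts in C old.

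Genes whose log2 CPM profile over the 11 libraries lay closest to that of each of the 9 genes were found among 13184 candidates by the root mean square difference after centring. They were Iqce (0.11) for Runx2, Prkar2b (0.15) and Zbtb37 (0.18) for Sp7, Fgfbp3 (0.18) and Nipal2 (0.19) for Alpl, and Dnase1l2 (0.36) and Zfp948 (0.41) for Bglap. Lgi2 (0.31) and Naalad2 (0.37) were closest to Ibsp, Nudt7 (0.13) and Klhdc2 (0.15) to Spp1, Cacna1a (0.08) and Vps16 (0.09) to Dlx5, Shroom3 (0.23) and Plekhg6 (0.25) to Dlx3, and Fap (0.31) and Dbndd1 (0.36) to Phex. The median difference over all candidates ran from 0.385 for the nearly flat Dlx5 to 1.29 for Bglap, so the values compare only within a gene. Dnase1l2 and Dbndd1 were low, with means of 0.525 and 0.621 CPM.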
